A study of Rattus norvegicus with 9 samples.

Results

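Expression of 7 genes of antigen processing and presentation was followed across the whole series: Cd74 (ENSRNOG00000018735), RT1-Da (ENSRNOG00000032844), B2m (ENSRNOG00000017123), Tap1 (ENSRNOG00000000457), Tap2 (ENSRNOG00000000455), Psmb8 (ENSRNOG00000000456) and Psmb9 (ENSRNOG00000000459). They were taken by Ensembl ID from the 32883 IDs of the deposited expression table, and all 7 were among the 15051 genes that reached 1 FPKM (a fragment count normalised for transcript length and sequencing depth) in at least 3 libraries. The deposited table lists IDs only, so each gene carries the symbol that was given with its ID when the set was chosen. The libraries came from rat brain tissue. The 9 libraries formed 3 groups of 3 samples: PN (middle cerebral artery occlusion treated with Panax notoginseng, a medicinal plant), MCAO (the occlusion without that treatment, a surgical model of ischaemic stroke) and sham (the operation without occlusion), so PN and MCAO share the occlusion. Libraries are named here by group and by the code that ends their title, such as MCAO 3B. The sources used here do not give strain, age, sex, brain region, hemisphere, dose or time after reperfusion. Whether the samples of a group are separate animals is not stated, so the p-values reflect a spread between samples that may be technical.

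The genes belong to both routes by which cells display peptides to T cells. In the class I route, proteasomes cut proteins inside the cell, the TAP transporter carries the peptides into the endoplasmic reticulum, and a heavy chain paired with beta-2-microglobulin presents them at the surface. In the class II route, an alpha and a beta chain assemble around the invariant chain, which blocks the groove and guides the complex to the compartment where it is loaded with peptides taken up from outside. In healthy brain, microglia and other macrophages are the main carriers of class II, and interferon gamma is known to induce both routes.

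All 7 genes had their highest value in the same library, MCAO 3B, and their lowest in the same library, sham 5B. Among all genes tested, 13.05% were highest in MCAO 3B, 16.1% were lowest in sham 5B, and 4.33% were both. Over all genes tested PN 3A stood at the ends most often, highest for 21.9% and lowest for 22.1%. In MCAO 3B the genes lay 0.26 to 2.74 above their medians over the 9 libraries on the log2(FPKM + 1) scale, and in sham 5B they lay 1.22 to 3.59 below them. The median of all genes tested lay at 0.00 in MCAO 3B and at -0.02 in sham 5B on that measure. Group means below carry these libraries, and differences are also given without them. The sum of FPKM ranged from 387893 to 445693 over the libraries. The number of reads is not given, and the spacing of low FPKM values gave an estimated depth, relative to MCAO 3B, of 1.28 for sham 5B and 1.33 for PN 7A, the deepest. The estimate is the most frequent ratio among low values, held by 20 of 356 genes for sham 5B and 14 of 337 for PN 7A. By it MCAO 3B was the shallowest library, followed by PN 3A at 1.08. For PN 3A the most frequent ratio was held by 11 of 308 genes and the next by 9, so the order of PN 3A and MCAO 3B is uncertain.

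**Figure D1:**
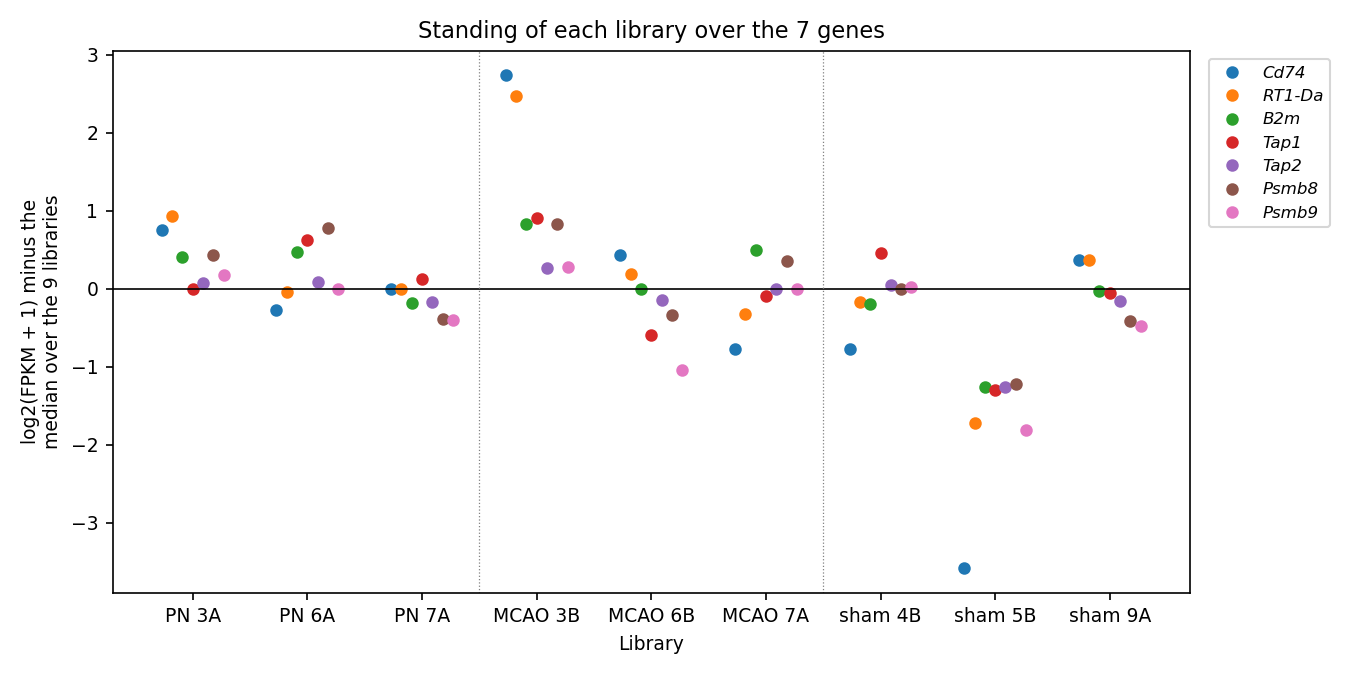
Standing of each library over the 7 genes. The vertical axis gives log2(FPKM + 1) minus the gene's median over the 9 libraries, and each point is 1 gene in the library named on the horizontal axis. The points of MCAO 3B all lie above 0 and those of sham 5B all lie below -1, no point of PN 3A lies below 0, and each of the other 6 libraries has points on both sides of 0.

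Promoter sequence is shown for 4 of the genes, since the known binding letters of interferon-induced factors and of the class II Y box can be read there. All 7 symbols had a 300 base window in RefSeq (assembly GRCr8, 250 bases before and 50 after the start), and the stretches printed end before the first annotated start of the gene. Capitals mark the searched letters, on either strand: GAAA and GAAA with any 2 bases between them (the core of an interferon-stimulated response element, ISRE), GGGA and TTCC with any 2 bases between them (a core bound by NF-kB), and, in RT1-Da alone, CCAAT, the core of the Y box of class II promoters.
B2m, chr3:129549120-129549235, plus strand: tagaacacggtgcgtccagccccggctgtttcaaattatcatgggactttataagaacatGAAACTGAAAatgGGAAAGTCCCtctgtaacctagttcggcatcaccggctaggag
Tap1, chr20:4668555-4668714, minus strand: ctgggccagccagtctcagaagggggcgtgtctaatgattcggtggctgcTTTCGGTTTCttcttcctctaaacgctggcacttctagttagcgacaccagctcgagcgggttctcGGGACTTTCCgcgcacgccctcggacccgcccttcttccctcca
Tap2, chr20:4652297-4652427, minus strand: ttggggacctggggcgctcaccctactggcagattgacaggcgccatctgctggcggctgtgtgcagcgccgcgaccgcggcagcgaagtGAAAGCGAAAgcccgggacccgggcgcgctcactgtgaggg
RT1-Da, chr20:4515276-4515392, plus strand: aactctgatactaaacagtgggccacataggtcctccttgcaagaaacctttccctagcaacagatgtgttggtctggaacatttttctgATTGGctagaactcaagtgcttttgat
The ISRE letters were found in the windows of B2m, Tap1, Tap2 and Psmb8, 4 of the 7 genes, against 3.92% of the 33469 RefSeq windows of the same length. They read GAAACTGAAA at -150 to -141 in B2m, TTTCGGTTTC at -121 to -112 in Tap1 and GAAAGCGAAA at -41 to -32 in Tap2, counted from the start. In Psmb8 they lie across the start, at -4 to 6. The NF-kB letters were found in B2m and Tap1, against 1.3% of all windows, and no 2 of the marked matches overlap. The letters CCAAT were found in Cd74, RT1-Da, B2m, Psmb8 and Psmb9, against 37.5% of all windows. They lie at -189 to -185 in Cd74, -49 to -45 in RT1-Da, -64 to -60 in B2m and -73 to -69 in Psmb8. In Psmb9 they lie after the start, at 23 to 27. A further search for TTC and GAA with any 3 bases between them, the core of the gamma-activated site, found it in Psmb8 alone, against 8.87% of all windows. These are matches of letters, and no binding was measured. Whether they bear on the values in these libraries was not tested.

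On the same assembly, Tap2, Psmb8, Tap1 and Psmb9 are direct neighbours on chromosome 20, with no other protein-coding gene between them. Tap1 and Psmb9 run away from each other with 408 bases between the genes, and their promoter windows share 44 bases. RT1-Da lies in the same cluster, with 5 protein-coding genes between it and Tap2, 4 of which are also class II chains of the RT1-D and RT1-B loci and the other RT1-DOb. B2m is on chromosome 3 and Cd74 on chromosome 18. The strain is not given and class II genes are polymorphic with related copies, and how well the reads of RT1-Da match the reference was not tested. The strand setting of the counting is not given either.

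Over the 9 libraries the class II pair varied most, but without MCAO 3B and sham 5B it varied no more than Tap1 and Psmb9. Cd74, the invariant chain, was found at 48.4 (3A), 23.2 (6A) and 28.3 (7A) FPKM among the PN samples, 194 (3B), 38.4 (6B) and 16.1 (7A) FPKM among the MCAO samples, and 16.0 (4B), 1.44 (5B) and 36.7 (9A) FPKM among the sham samples. The 3 groups overlapped, with MCAO holding the highest value and also 1 of the 3 lowest. The highest library was 135 times the lowest, and 3.02 times once MCAO 3B and sham 5B were set aside. The SD of Cd74 over the 9 libraries, 1.67 on the log2(FPKM + 1) scale, ranked 61 among the 15051 genes tested.

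RT1-Da, a class II alpha chain, followed nearly the same order at a lower level. Its values were 5.79 (3A), 2.46 (6A) and 2.57 (7A) FPKM among the PN samples, 18.7 (3B), 3.09 (6B) and 1.85 (7A) FPKM among the MCAO samples, and 2.16 (4B), 0.0798 (5B) and 3.62 (9A) FPKM among the sham samples. The groups overlapped here too, and the 2 highest libraries, MCAO 3B and PN 3A, were those of Cd74. Its SD of 1.11 on the log2(FPKM + 1) scale ranked 260. Without MCAO 3B and sham 5B the highest library of RT1-Da was 3.14 times the lowest. In bulk tissue, fewer cells that carry a gene and less RNA per cell cannot be told apart. Markers of microglia, other leukocytes and choroid plexus were not analysed here, because the table names genes by ID only, so their part in these values was not tested.

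Among the class I genes B2m, the light chain shared by all classical class I molecules, was by far the most abundant per length. It was found at 381 (3A), 398 (6A) and 253 (7A) FPKM among the PN samples, 511 (3B), 287 (6B) and 404 (7A) FPKM among the MCAO samples, and 249.8 (4B), 119 (5B) and 282 (9A) FPKM among the sham samples. Every MCAO value exceeded every sham value, by a narrow margin between MCAO 6B and sham 9A, and PN 7A fell among the sham libraries. The highest library was 4.30 times the lowest, and 1.62 times without MCAO 3B and sham 5B.

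Tap1 and Tap2 are the subunits of the peptide transporter. Tap1 was measured at 2.35 (3A), 4.15 (6A) and 2.65 (7A) FPKM among the PN samples, 5.27 (3B), 1.22 (6B) and 2.15 (7A) FPKM among the MCAO samples, and 3.60 (4B), 0.356 (5B) and 2.24 (9A) FPKM among the sham samples. MCAO 6B and MCAO 7A were thus below sham 4B and sham 9A. Tap2 was measured at 2.85 (3A), 2.90 (6A) and 2.27 (7A) FPKM among the PN samples, 3.40 (3B), 2.32 (6B) and 2.67 (7A) FPKM among the MCAO samples, and 2.80 (4B), 0.534 (5B) and 2.28 (9A) FPKM among the sham samples. Over the 9 libraries the highest was 14.8 times the lowest for Tap1 and 6.37 times for Tap2. Without MCAO 3B and sham 5B these were 3.39 times for Tap1 and 1.28 times for Tap2, the smallest of the 7 genes in those libraries.

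Psmb8 and Psmb9 are catalytic subunits that replace constitutive ones in the immunoproteasome, the form of the proteasome induced by interferon. Psmb8 was present at 3.85 (3A), 5.16 (6A) and 1.74 (7A) FPKM among the PN samples, 5.37 (3B), 1.83 (6B) and 3.57 (7A) FPKM among the MCAO samples, and 2.58 (4B), 0.535 (5B) and 1.69 (9A) FPKM among the sham samples. The PN and MCAO libraries ran over nearly the same values, and both groups had a library below sham 4B. Psmb9 was present at 4.96 (3A), 4.27 (6A) and 2.998 (7A) FPKM among the PN samples, 5.38 (3B), 1.56 (6B) and 4.26 (7A) FPKM among the MCAO samples, and 4.33 (4B), 0.502 (5B) and 2.78 (9A) FPKM among the sham samples. For Cd74 only MCAO 3B and PN 3A exceeded MCAO 6B, while for Psmb9 and Tap1 only sham 5B lay below it. Without MCAO 3B and sham 5B the highest library was 3.18 times the lowest for Psmb9 and 3.06 times for Psmb8. The ranks of SD over the 9 libraries were 1667 for Psmb9, 1744 for Psmb8, 1787 for Tap1, 2259 for B2m and 4858 for Tap2, of 15051 genes.

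**Figure D2:**
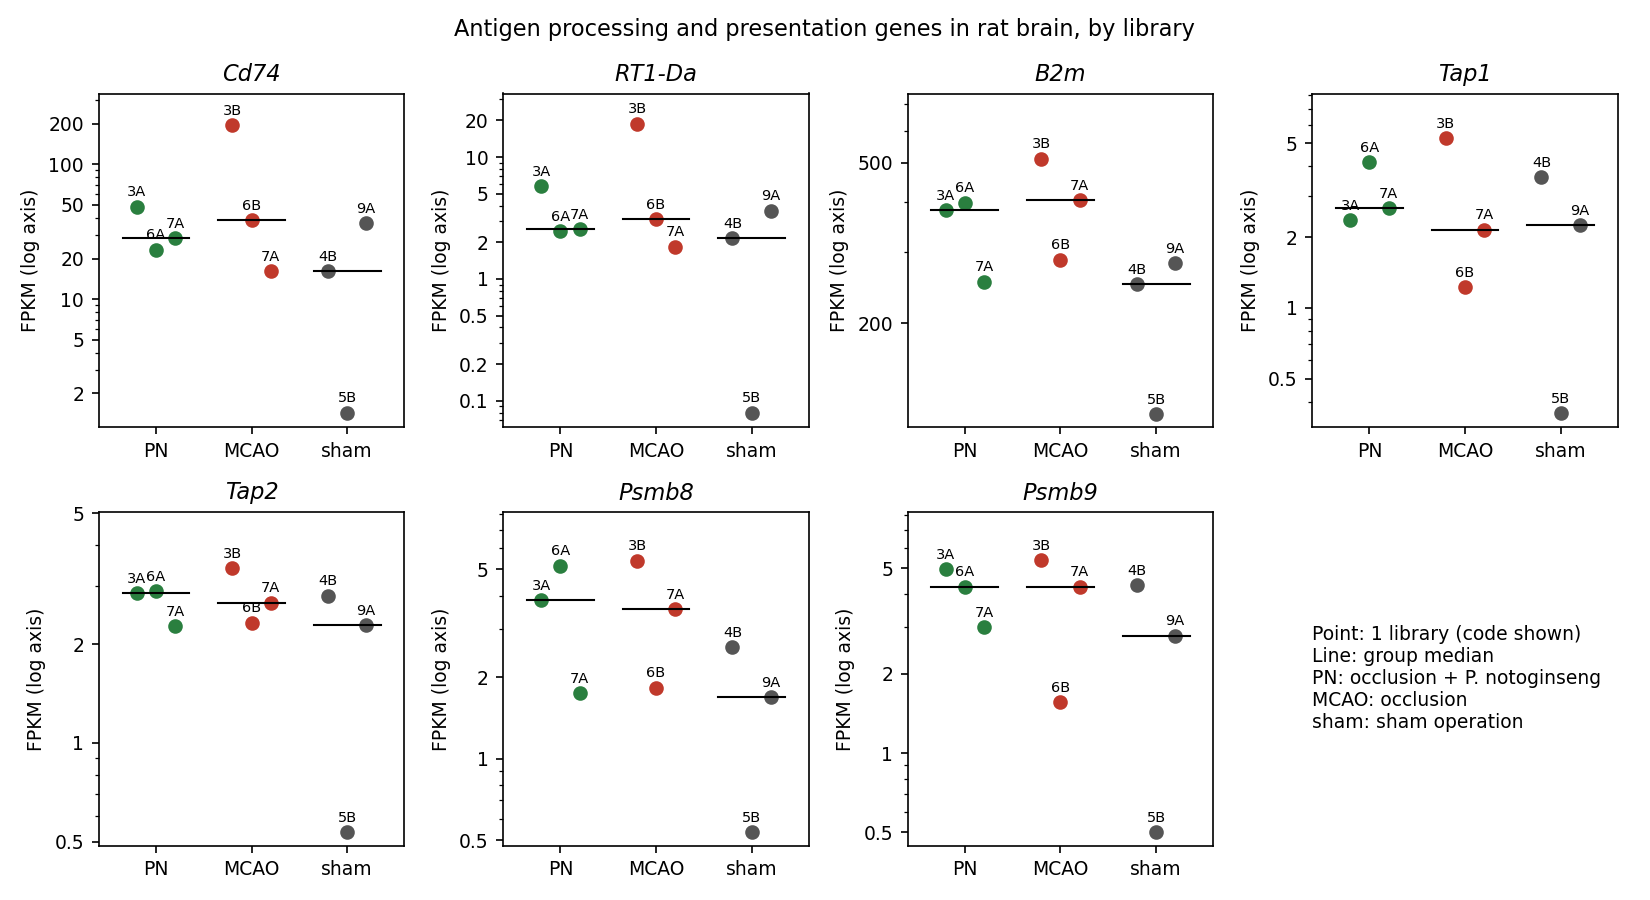
FPKM of the 7 genes in every library, on a log axis with its own range in each panel. Points are libraries with their codes, in the groups PN, MCAO and sham, and lines are group medians. MCAO 3B is the highest and sham 5B the lowest point in each panel, and in B2m alone do the MCAO and sham points not overlap.

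MCAO was compared with sham to ask how the occlusion bore on these genes. All 7 had a positive log2 difference, as had 48.2% of all genes tested, but 0 of 7 passed the test (limma, p adjusted over 15051 genes, smallest adjusted p = 0.406), where 0.00664% of all genes were called. The largest difference was that of Cd74, with 82.8 ± 96.9 FPKM in MCAO, against 18.0 ± 17.7 FPKM in sham (SD, n = 3 each). The log2 difference was 2.13, standard error 1.05 (limma, adjusted p = 0.488). RT1-Da averaged 7.89 ± 9.42 FPKM in MCAO, against 1.95 ± 1.78 FPKM in sham (SD, n = 3 each), and the log2 difference was 1.29 (standard error 0.74, limma adjusted p = 0.541). The 1 FPKM added before taking logs lowers such values for weakly expressed genes: with 0.1 FPKM added, RT1-Da was at 2.09 and Cd74 at 2.35.

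B2m was the only 1 of the 7 at an unadjusted p under 0.05 (limma, adjusted p = 0.406), where 11.1% of all genes were. It was also the only 1 whose groups did not overlap, where 19.6% of all genes did not. It averaged 401 ± 112 FPKM in MCAO, against 217 ± 86.3 FPKM in sham (SD, n = 3 each). Its log2 difference was 0.94 with a standard error of 0.35 and a 95% interval of 0.14 to 1.74. The other class I genes had log2 differences of 0.83 for Psmb8, 0.50 for Psmb9, 0.50 for Tap2 and 0.37 for Tap1, with standard errors from 0.33 to 0.50. The median over the 7 genes was 0.83, against -0.01 over all genes tested. The intervals of all 7 included a 2-fold difference, and their median standard error was 0.49, against 0.26 over all genes tested.

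Most of these differences moved to near 0 or below it without MCAO 3B and sham 5B. MCAO 3B was the highest and sham 5B the lowest library for all 7 genes, so leaving either out could only lower them. The direction of the move therefore carries no information on the occlusion. With both left out, a choice made after the data were seen, the log2 difference of Cd74 was 0.03 (limma, adjusted p = 0.993, 95% interval -1.24 to 1.302) and that of RT1-Da was -0.16. B2m was then at 0.36 and Psmb8 at 0.21, while Tap1 was at -0.55, Psmb9 at -0.29 and Tap2 at -0.02. The mean of Cd74 in these libraries was 27.2 FPKM in MCAO and 26.4 FPKM in sham. Without sham 5B alone the difference was -0.13 for Tap1, -0.02 for Psmb9, 0.09 for Tap2, 0.49 for Psmb8, 0.56 for B2m, 0.68 for RT1-Da and 1.003 for Cd74. Without MCAO 3B alone it was 1.16 for Cd74, 0.74 for B2m, 0.55 for Psmb8, 0.44 for RT1-Da, 0.38 for Tap2, 0.24 for Psmb9 and -0.04 for Tap1.

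PN was compared with MCAO to ask how the treatment bore on these genes in rats with the occlusion. A positive log2 difference was seen in 2 of the 7, Tap1 and Psmb9, against 57.1% of all genes. 0 of 7 genes passed (limma, smallest adjusted p = 0.805), where 0.00664% of all genes were called. 0 of 7 were at an unadjusted p under 0.05, against 13.2% of all genes, and the groups overlapped in all 7, where they did not in 20.3% of all genes. Cd74 averaged 33.3 ± 13.3 FPKM in PN, against 82.8 ± 96.9 FPKM in MCAO (SD, n = 3 each), and the log2 difference was -0.63 (standard error 1.05, limma adjusted p = 0.822). RT1-Da averaged 3.61 ± 1.89 FPKM in PN, against 7.89 ± 9.42 FPKM in MCAO (SD, n = 3 each), and the log2 difference was -0.48 (standard error 0.74). Without MCAO 3B the differences were 0.34 for Cd74 and 0.36 for RT1-Da, so both class II genes changed sign without that library. As MCAO 3B was the highest library for all 7 genes, leaving it out could only raise the differences of PN from MCAO.

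For the class I genes, B2m averaged 344 ± 79.0 FPKM in PN, against 401 ± 112 FPKM in MCAO (SD, n = 3 each), and the log2 difference was -0.21 (95% interval -1.01 to 0.59). The log2 differences were 0.18 for Psmb9, 0.17 for Tap1, -0.04 for Tap2 and -0.0028 for Psmb8. Without MCAO 3B they were 0.59 for Tap1, 0.45 for Psmb9, 0.27 for Psmb8, 0.07 for Tap2 and -0.01 for B2m. On the log2(FPKM + 1) scale the interval was -0.79 to 0.70 for Tap2 and -0.97 to 0.97 for Psmb8, and it reached past 1 in size for the other 5 genes. With 0.1 FPKM added instead, it was -1.26 to 1.15 for Tap2 and -1.42 to 1.41 for Psmb8, so a 2-fold difference in FPKM lies within the interval of all 7. The median over the 7 genes was -0.04, against 0.07 over all genes tested.

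PN was also compared with sham, which shares its libraries with the comparisons above. All 7 genes had a positive log2 difference, as had 55.5% of all genes, and 0 of 7 passed (limma, smallest adjusted p = 0.974), where 0.0199% of all genes were called. 0 of 7 were at an unadjusted p under 0.05, against 4.25% of all genes, and the groups overlapped in all 7, where they did not in 8.71% of all genes. Cd74 averaged 33.3 ± 13.3 FPKM in PN, against 18.0 ± 17.7 FPKM in sham (SD, n = 3 each), and the log2 difference was 1.49 (standard error 1.05). RT1-Da had a log2 difference of 0.80 (standard error 0.74), and of 1.58 with 0.1 FPKM added. B2m averaged 344 ± 79.0 FPKM in PN, against 217 ± 86.3 FPKM in sham (SD, n = 3 each), and the log2 difference was 0.73 (standard error 0.35, limma adjusted p = 0.974). Psmb8 averaged 3.58 ± 1.72 FPKM in PN, against 1.60 ± 1.03 FPKM in sham (SD, n = 3 each), and the log2 difference was 0.82 (standard error 0.43, limma adjusted p = 0.974). Without sham 5B the differences were 0.37 for Cd74, 0.35 for B2m, 0.49 for Psmb8, 0.20 for RT1-Da, 0.16 for Psmb9, 0.05 for Tap2 and 0.04 for Tap1. As sham 5B was the lowest library for all 7 genes, leaving it out could only lower these differences.

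**Figure D3:**
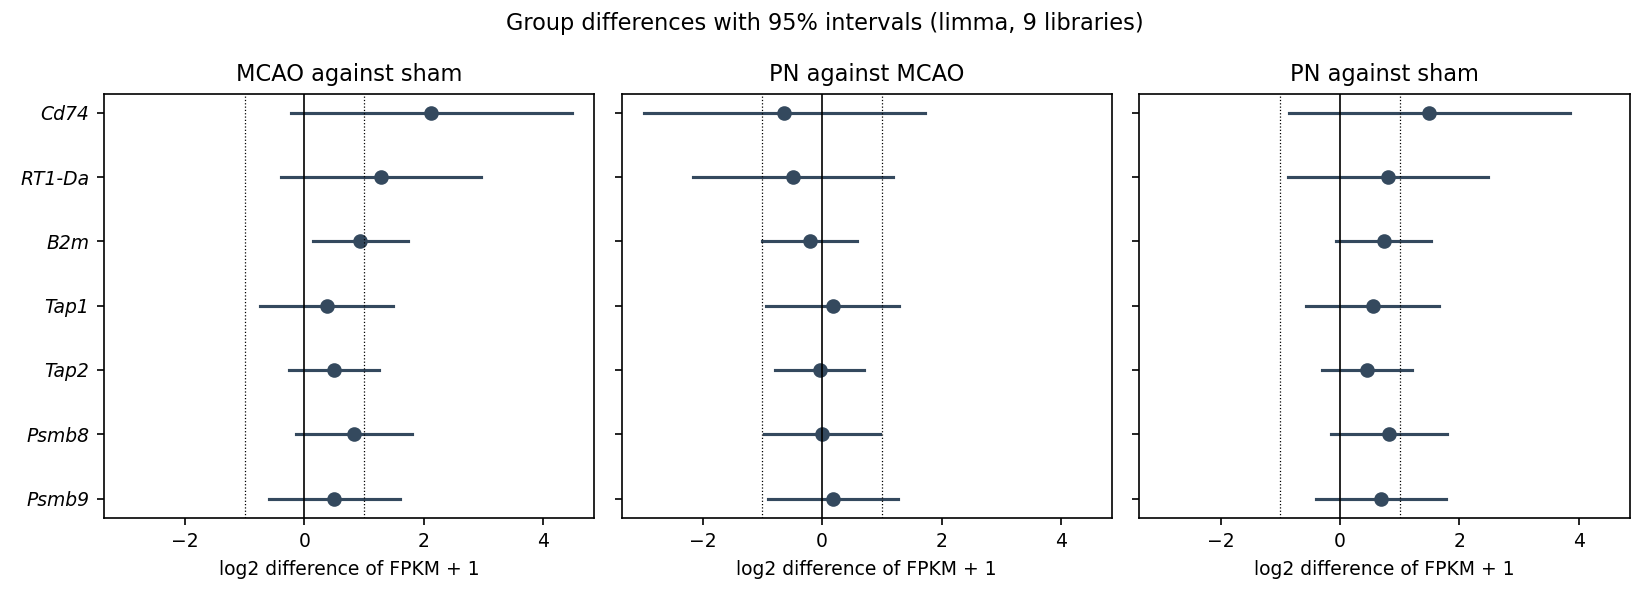
Log2 differences of FPKM + 1 for the 7 genes in each of the 3 comparisons. Points are the limma estimates over the 9 libraries, lines their 95% intervals, the solid line marks 0 and the dotted lines a 2-fold difference. The interval of B2m in MCAO against sham, 0.14 to 1.74, is the only 1 of the 21 that does not include 0.

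Over the 9 libraries the 7 genes varied together, most closely within the class II pair. Of the 21 pairs of genes, 19 correlated on the log2(FPKM + 1) scale (Pearson, exact permutation test, two-sided, adjusted p under 0.05 over the 21 pairs), with r from 0.70 to 0.97 and a median of 0.84. By Spearman's rho, 6 of the 21 passed, with rho from 0.33 to 0.97. As deviations from group means, 17 pairs passed with a median r of 0.81. These correlations leaned on the ends of the range: MCAO 3B and sham 5B were the libraries farthest from the median for the first gene of every pair, and without them 1 of the 21 pairs passed. All 7 genes were highest in MCAO 3B and lowest in sham 5B, as were 4.33% of all genes tested. How often pairs drawn from all genes tested pass was not computed, so the counts of pairs have no background share.

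The pair that passed without those libraries was Cd74 and RT1-Da. It had r = 0.97 and rho = 0.97 over the 9 libraries (exact permutation p = 0.000474 and 0.000165, adjusted 0.00227 and 0.00174). Without MCAO 3B and sham 5B it had r = 0.90 and rho = 0.93 over 7 libraries (exact permutation p = 0.00119 and 0.00675, adjusted 0.025 and 0.0708). RT1-Da was also the gene most like Cd74 of all 15050 others, by Pearson r over the 9 libraries, where 25 of them had r of at least 0.9. This ranking was not made without MCAO 3B and sham 5B. Next was ENSRNOG00000016692, with r = 0.96 and a range of 16.5 FPKM in sham 5B to 30.9 FPKM in MCAO 3B. B2m came 124th, Tap2 136th, Tap1 508th, Psmb9 672nd and Psmb8 682nd. The median r with Cd74 over all genes was 0.04.

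Within the class I machinery, Tap2 and Psmb8 had r = 0.87 and rho = 0.97 over the 9 libraries (exact permutation p = 0.000154 and 0.000165, adjusted 0.00227 and 0.00174). Without MCAO 3B and sham 5B this pair had r = 0.90, Tap2 and Psmb9 had r = 0.82, B2m and Psmb8 had r = 0.85, Psmb8 and Psmb9 had r = 0.74, and the head-to-head pair Tap1 and Psmb9 had r = 0.71. None of these 5 passed after adjustment with 7 libraries (exact permutation, adjusted p from 0.147 to 0.288). The other class I pairs had lower r in those 7 libraries, and none of them passed either. Their r was 0.61 for Tap1 and Tap2, 0.61 for B2m and Tap2 and 0.54 for Tap1 and Psmb8. It was 0.50 for B2m and Psmb9 and 0.09 for B2m and Tap1. Between the class II pair and the class I genes r was then -0.50 to 0.12, whereas with all 9 libraries it was 0.70 to 0.84. The difference between the correlations was not tested.

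**Figure D4:**
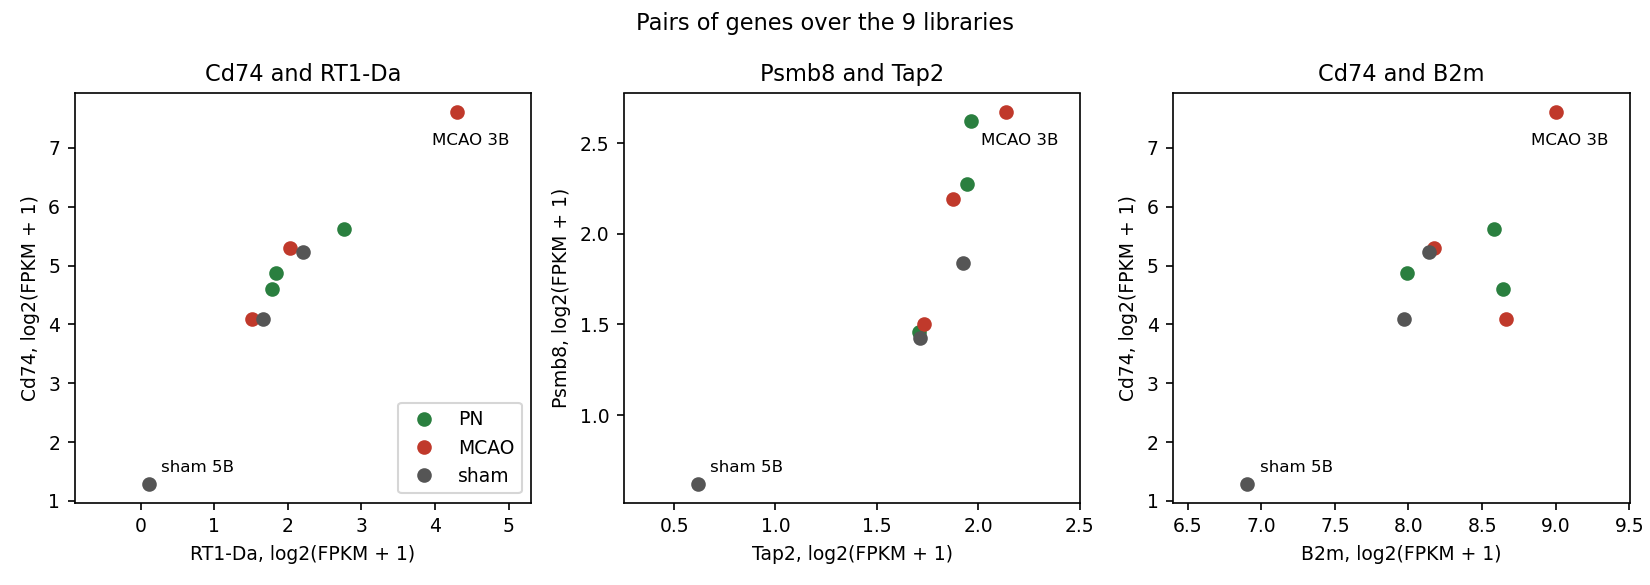
Log2(FPKM + 1) of Cd74 against RT1-Da, Psmb8 against Tap2 and Cd74 against B2m, each point 1 library coloured by group, with MCAO 3B and sham 5B named. The 7 unnamed libraries keep a common order in the left and middle panels (r = 0.90 in both) and none in the right panel (r = -0.02).

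FPKM is scaled to length, so partner genes can be set against each other within a library, and such a ratio does not move with the scaling of the library. Cd74 stood at 8.36, 9.44 and 10.99 times RT1-Da in PN 3A, 6A and 7A. It stood at 10.4, 12.4 and 8.70 times RT1-Da in MCAO 3B, 6B and 7A, and at 7.42, 18.0 and 10.1 times in sham 4B, 5B and 9A. The ratio thus stayed within 2.43-fold over libraries in which Cd74 itself spanned 135-fold, and its highest value came from sham 5B, where RT1-Da was at 0.0798 FPKM. The Tap1 to Tap2 ratio averaged 1.14 ± 0.304 in PN, 0.960 ± 0.529 in MCAO and 0.977 ± 0.308 in sham (SD, n = 3 each), with its lowest value of 0.527 in MCAO 6B and its highest of 1.55 in MCAO 3B. The Psmb8 to Psmb9 ratio averaged 0.856 ± 0.321 in PN, 1.003 ± 0.168 in MCAO and 0.757 ± 0.268 in sham (SD, n = 3 each), from 0.582 in PN 7A to 1.21 in PN 6A. In all 3 ratios the groups overlapped.

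**Figure D5:**
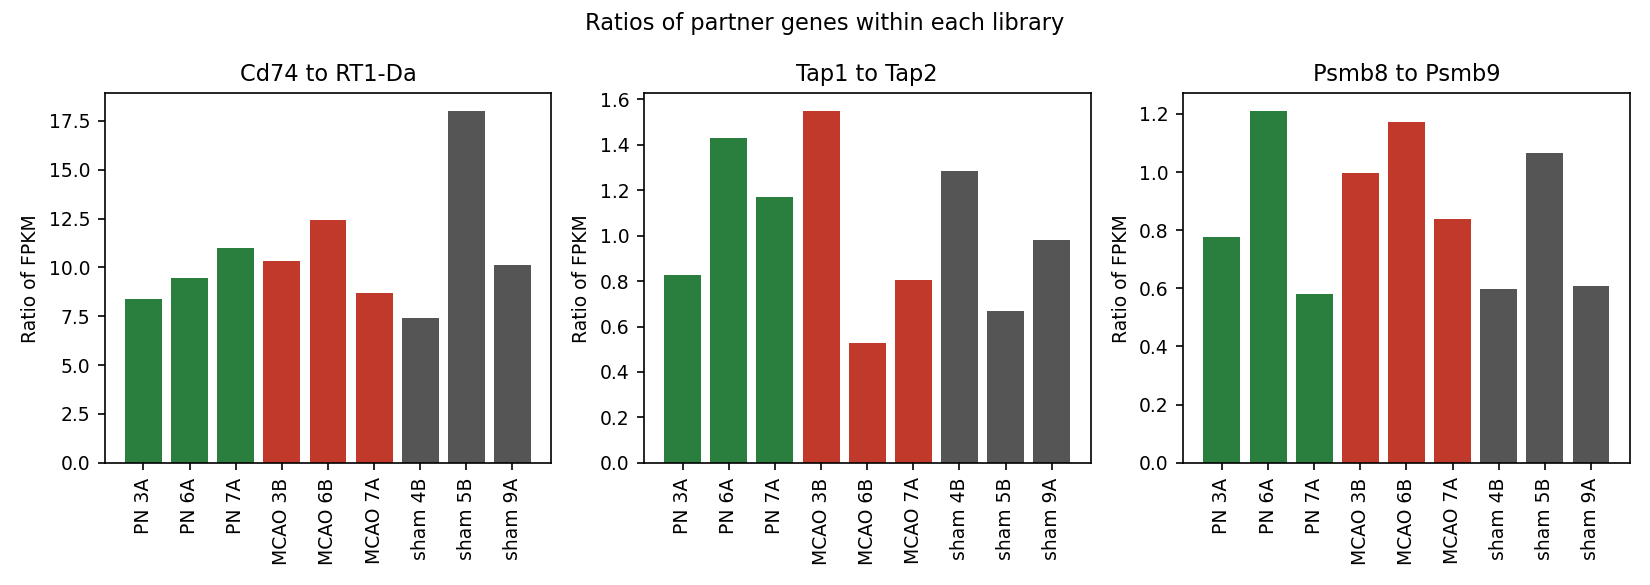
Ratio of FPKM between partner genes in each library, with bars from 0 in green for PN, red for MCAO and grey for sham. Cd74 lies between 7.42 and 18.0 times RT1-Da, while Tap1 to Tap2 and Psmb8 to Psmb9 lie on both sides of 1.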

How the data were processed

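RNA from rat brain tissue was sequenced in 9 libraries, grouped by title as PN, MCAO and sham. The authors deposited gene values as FPKM, per the file headers. StringTie 1.3.1, HISAT2, Bowtie2 2.2.8 and fastp 0.18.0 are listed in the submitters' processing notes, with no role stated. Genome build, annotation and strand setting were not given in the sources used here. The FPKM of 5 of the 7 genes, as of 4792 rows in all, carry more than 6 decimals. Each column was assigned by the code closing its name. For the code 7A, shared by a PN and an MCAO title, the opening letters of the name decided. Read numbers are unknown, so no counting interval is given.

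Genes with at least 1 FPKM in 3 or more libraries were analysed on log2(FPKM + 1), which understates the change of low genes. A single limma model (limma 3.58.1, R 4.3.3, with a mean-variance trend) held all 9 libraries. Its two-sided p-values were adjusted by Benjamini-Hochberg over 15051 genes, at a threshold of 0.05. The scripts were tested on simulated data. Correlations, ratios and sequence searches used Python 3.11.15, numpy 2.4.6 and scipy 1.17.1. Alternatives varied the pseudocount (0.1), the filter (none, or 5 FPKM), the scaling (equal sums, quantiles, median of ratios), the limma settings (robust estimation, array weights, the 6 libraries compared), the code letter as covariate and the code number as replicate block, and omitted each library in turn.

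The genes and lists were chosen with earlier results of these data known. All 7 genes are named, and so are the 2 IDs most like Cd74, RT1-Da (already among the 7) and ENSRNOG00000016692. Lists of other pathway genes and cell type markers, drawn up by symbol, were not used: 0 RefSeq genes (GRCr8) carried an Ensembl ID to pair them with the table.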

Additional observations from a re-analysis of the deposited data

How the results depend on the processing

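In each of the 3 comparisons, 0 of the 7 genes passed under every alternative run, with smallest adjusted p of 0.315 to 0.850 in MCAO against sham, 0.351 to 0.903 in PN against MCAO and 0.631 to 1 in PN against sham (limma). Over all genes tested these alternatives called 1 to 3 genes in MCAO against sham and 2 to 5 in PN against sham. In PN against MCAO they called 377 of 15051 genes with array weights, against 1 in the main fit, and 0 to 4 otherwise. B2m in MCAO against sham had an unadjusted p under 0.05 in 16 of 20 alternatives. With a pseudocount of 0.1 FPKM, log2 differences from sham moved by over 1.5 times for RT1-Da (2.09 in MCAO, 1.58 in PN), Tap1 (0.67 in MCAO, 0.95 in PN), Tap2 (0.81 in MCAO, 0.75 in PN) and Psmb9 (0.79 in MCAO, 1.05 in PN), and that of Tap1 in PN against MCAO was 0.28. A minimum of 5 FPKM kept only Cd74 and B2m. No log2 difference of PN against sham changed sign. In MCAO against sham, leaving out 1 library in turn gave -0.13 to 0.75 for Tap1 and -0.023 to 0.90 for Psmb9, and leaving out both MCAO 3B and sham 5B gave -0.16 for RT1-Da, -0.55 for Tap1, -0.017 for Tap2 and -0.29 for Psmb9. In PN against MCAO, leaving out 1 library in turn gave -1.42 to 0.34 for Cd74, -1.04 to 0.36 for RT1-Da, -0.16 to 0.59 for Tap1, -0.14 to 0.068 for Tap2, -0.31 to 0.33 for Psmb8 and -0.21 to 0.45 for Psmb9. Leaving out both libraries gave 0.34 for Cd74, 0.36 for RT1-Da, 0.068 for Tap2 and 0.27 for Psmb8 there. Psmb9 was at -0.066 with array weights and at -0.085 with the code letter as covariate. The remaining 389 values of single genes kept their sign, and beyond the libraries left out the cause was not tested.

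With a replicate block for the code number, 0 of 7 genes passed in PN against MCAO (limma, smallest adjusted p = 0.706), where 0 of 15051 genes were called. Cd74 was at -0.63 with a standard error of 0.53, against 0.81 in the same 6 libraries without the block. The block also lowered the standard error of RT1-Da (0.42 against 0.70) and Psmb9 (0.36 against 0.37), and raised that of B2m, Tap1, Tap2 and Psmb8. Deviations of same-numbered PN and MCAO libraries correlated at 0.06, -0.40 and -0.16, and those of libraries with other numbers at -0.31 to 0.45. With 3 libraries per group, whose deviations sum to 0, these values cannot decide whether the numbers mark pairs. The titles state no pairing, and the main fit used none.

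Without the 2 libraries farthest from the median, 1 of 21 correlations between genes passed. Those of Cd74 were then -0.016 with B2m, -0.50 with Tap1, -0.34 with Tap2, -0.26 with Psmb8 and -0.37 with Psmb9, and those of RT1-Da were -0.28 with Tap1, -0.0013 with Tap2 and -0.021 with Psmb8.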

Other observations

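The ratio of B2m to Cd74, a gene from each route, was also read per length. B2m stood at 7.88, 17.1 and 8.97 times Cd74 in PN 3A, 6A and 7A, at 2.63, 7.49 and 25.2 times in MCAO 3B, 6B and 7A, and at 15.6, 82.7 and 7.68 times in sham 4B, 5B and 9A. The ratio spanned 31.4-fold over the 9 libraries, against 2.43-fold for Cd74 to RT1-Da, 2.94-fold for Tap1 to Tap2 and 2.08-fold for Psmb8 to Psmb9. Its lowest and highest values were those of MCAO 3B and sham 5B. Both genes were highest in MCAO 3B and lowest in sham 5B, so the 31.4-fold span follows from their own spans, 135-fold and 4.30-fold. Among the other 7 libraries it ran from 7.49 in MCAO 6B to 25.2 in MCAO 7A, within 1 group. Over those 7 libraries the spans were 3.36-fold for B2m to Cd74, 2.72-fold for Tap1 to Tap2, 2.08-fold for Psmb8 to Psmb9 and 1.68-fold for Cd74 to RT1-Da. These ratios were computed after the values had been seen and were not tested.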
